A study of Mus musculus with 37 samples.

Results

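Oncostatin M and the receptor and signalling genes it shares with interleukin 6 were followed through social defeat stress in mouse bone marrow and spleen. The 6 genes were taken by symbol from a table of 35885 genes: Osm, Osmr, Il6ra, Il6st, Stat3 and Socs3. All 6 were found, each as 1 row. They are named members of 1 pathway.

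The 37 libraries came from femoral marrow (19) and spleen (18) of wild-type C57BL/6N mice. Polyadenylated RNA of whole flushed marrow or whole spleen was sequenced, so a value is an average over all cells of the organ. In the social defeat model, used to study chronic stress, a mouse is repeatedly attacked by another; here defeats came 1 per day. The control mice (marrow n = 3, spleen n = 4) were never defeated. The other groups had 1 defeat (n = 4 and 2), 4 defeats (n = 3 and 2), 10 defeats (n = 5 and 6), or 10 defeats followed by 1 week with no intervention, called rest below (n = 4 and 4). No gene or cell was altered in any group, and age and sex were not given in the sources used here. Library names such as C1 or D5 are those of the labels. The series calls the libraries of a group biological replicates, and no further account of their origin was used here.

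Oncostatin M is a cytokine of the interleukin 6 family, made by neutrophils, monocytes, macrophages and T cells. It binds a receptor made of OSMR and gp130, the chain encoded by Il6st that most cytokines of this family use. Interleukin 6 reaches gp130 through its own receptor chain, encoded by Il6ra. Receptor-bound JAK kinases then phosphorylate STAT3, which enters the nucleus and switches on genes such as Socs3. SOCS3 protein binds gp130 and the kinases and shuts the signal off, which makes Socs3 both a target and a brake. In marrow, oncostatin M is known to act on stromal cells and on bone-forming cells, and gp130 signalling to favour granulocyte production under stress. RNA levels do not report the phosphorylation that carries the signal.

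By the GENCODE M21 annotation of GRCm38, 3 of the genes lie on chromosome 11: Osm at chr11:4236420-4241026 on the plus strand, Stat3 at chr11:100885098-100939540 and Socs3 at chr11:117966079-117970047, both on the minus strand. Osmr lies at chr15:6813577-6874969 and Il6ra at chr3:89864059-89913196, both on the minus strand, and Il6st at chr13:112464070-112510086 on the plus strand. All 6 are protein coding. The RefSeq promoter table (GRCm38.p6) held an entry for 5 of the 6, all but Osm. The 250 bases before the start site are shown for Stat3 and Socs3, the transcription factor and its feedback target, which both rose in marrow after 10 defeats. Capitals mark a match to the STAT motif TTCNNNGAA, which is the same on both strands.
Socs3 (chr11:117969367-117969616, minus strand): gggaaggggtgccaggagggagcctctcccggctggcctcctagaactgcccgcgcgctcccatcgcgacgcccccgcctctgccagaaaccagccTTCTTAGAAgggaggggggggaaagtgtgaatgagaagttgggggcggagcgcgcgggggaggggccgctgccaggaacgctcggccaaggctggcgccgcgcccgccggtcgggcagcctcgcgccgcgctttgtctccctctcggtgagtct
Stat3 (chr11:100939541-100939790, minus strand): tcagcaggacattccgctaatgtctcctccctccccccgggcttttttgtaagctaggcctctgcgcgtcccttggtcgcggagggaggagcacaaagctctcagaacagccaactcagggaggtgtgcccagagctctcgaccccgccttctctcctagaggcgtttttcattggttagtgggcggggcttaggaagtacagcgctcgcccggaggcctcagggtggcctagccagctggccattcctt
The Socs3 stretch held 1 match, TTCTTAGAA, at -154 to -146 counted from the RefSeq start, and the Stat3 stretch none. The nearest protein-coding Socs3 start in GENCODE lay 180 bases downstream of the RefSeq start, while for Stat3 both annotations gave the same base. Among windows reaching from 250 bases before to 50 after the start, 8.3% of 32851 held this motif. Il6ra and Il6st held none in theirs. The AP-1 motif TGANTCA, present in 7.81% of the windows, occurred among the 5 genes in Osmr alone, 3 to 9 bases after the RefSeq start, which lies 656 bases from the nearest protein-coding start of GENCODE. No window held both motifs, so matches did not overlap. These matches describe letters in short windows and were not tested for binding.

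Values are the authors' abundances scaled per library, in their units; the exact quantity is unknown here, so levels are compared between libraries for 1 gene and not between genes. Column totals ranged from 657918 to 2652290. Differences are on the log2(value + 1) scale with their standard error (SE), from limma fitted on all genes of a tissue, and a gene was called at a Benjamini-Hochberg adjusted p under 0.05. The share of all tested genes that passed the same rule is given for each comparison. In marrow 5 of the members were tested and in spleen 6, because Osmr never reached the filter in marrow. Depth is not given; judged from the steps between low values, the libraries held about 3.61 to 34.9 M reads (median 11.5 M). That estimate is rough, since 57.4% to 73.4% of low values lay within 0.1 of a whole read.

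Some spleens stood apart. In 5 spleen libraries (D6, D7, D9 and D10 of 10 defeats and D2 of the rest group) values of long genes were low relative to those of short genes. The slope of a library's log2 deviation on log2 gene length was -0.181 to -0.163 in these 5, and -0.097 to 0.073 in the other spleens. Gene length here is the median over a gene's annotated transcripts. In marrow all slopes lay between -0.055 and 0.018. The 5 steep libraries also had the highest column totals, 1539153 (D9) to 2652290 (D2), against at most 1015794 in the other spleens. The calls of the members in spleen, and the counts of the other pathway genes after 10 defeats, are therefore given with and without these 5 libraries.

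Cell makeup also moved with defeat. In marrow after 10 defeats, 14 of 15 mature neutrophil markers, 6 of 7 early granule genes and 8 of 10 monocyte markers rose, while 10 of 10 B cell, 8 of 10 T cell, 8 of 12 macrophage, 7 of 10 erythroid, 4 of 10 megakaryocyte, 5 of 9 stromal and 5 of 7 endothelial markers tested fell. Of all genes 17.5% rose and 28.3% fell in that comparison. From 10 defeats to rest, 10 of 10 megakaryocyte, 7 of 7 endothelial, 5 of 9 stromal, 4 of 10 B cell, 3 of 10 T cell, 3 of 10 erythroid and 1 of 12 macrophage markers rose, while 7 of 15 neutrophil, 1 of 7 early granule and 7 of 10 monocyte markers fell, against 13.8% and 7.91% of all genes. The megakaryocyte sum averaged 300.1 in controls, 178.6 after 10 defeats and 715.3 after rest. In spleen after 10 defeats, where 16.8% of all genes rose and 41.9% fell, 9 neutrophil markers rose and 1 fell, 6 of 7 early granule and 10 of 10 erythroid markers rose, 5 megakaryocyte markers rose and 1 fell, 2 monocyte markers rose and 4 fell, and 10 B cell, 9 T cell, 5 macrophage, 8 of 10 stromal and 9 of 10 endothelial markers fell. Without the 5 steep libraries, where 8.59% of all genes rose and 15.2% fell, 6 neutrophil, 6 early granule, 6 erythroid, 5 megakaryocyte and 1 monocyte markers rose. In the same fit 1 neutrophil, 2 monocyte, 3 B cell, 8 T cell, 2 macrophage, 4 stromal and 3 endothelial markers fell. In whole tissue, fewer cells of a type and less RNA per cell cannot be told apart.

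In marrow, the cytokine and the feedback inhibitor rose with repeated defeat and fell after rest. Osm averaged 4.81 ± 0.317 (SD, n = 3) in controls, 13.4 ± 4.29 (n = 3) after 4 defeats and 22.4 ± 7.70 (n = 5) after 10. Socs3 averaged 3.09 ± 0.632, 9.42 ± 1.94 and 12.6 ± 3.97 in the same groups. Stat3 rose less, and only after 10 defeats did it pass the test. The receptor genes moved little: Il6ra was called by a narrow margin, Il6st was not, and Osmr was near the limit of detection.

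**Figure D1:**
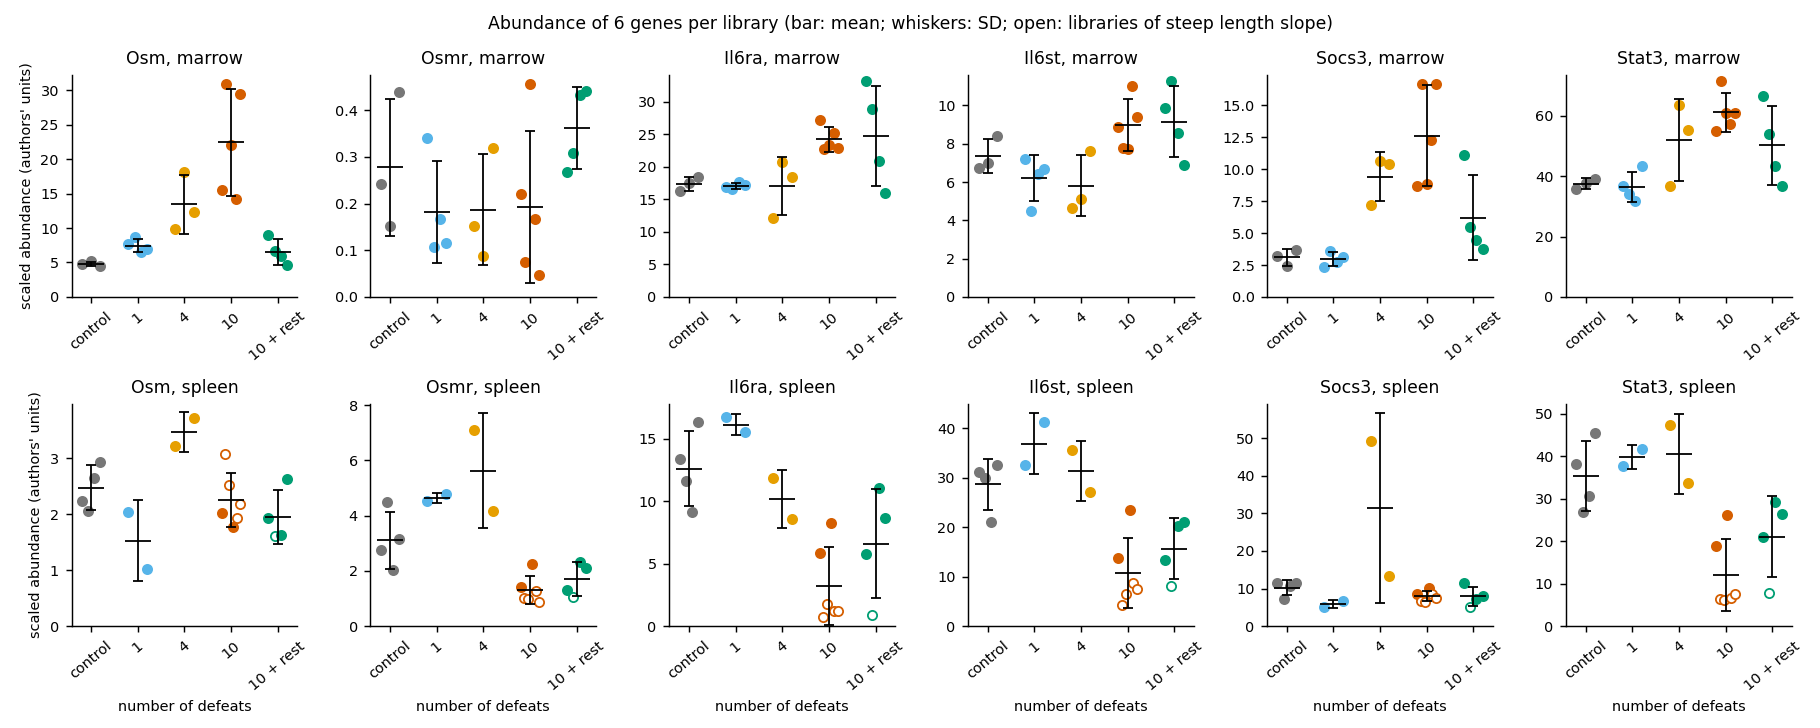
Scaled abundance of the 6 genes (y axis, linear from 0, authors' units) in every library, by number of defeats (x axis), in marrow (top) and spleen (bottom). Bars are group means and whiskers the SD; open points are the 5 spleen libraries of steep length slope. Marrow Osm climbs from at most 5.16 in controls to at least 14.2 after 10 defeats, and spleen Il6ra, Il6st and Stat3 are lowest in the open points.

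Osm itself stood at 4.73, 5.16 and 4.54 in the marrow of controls C1, C2 and C4. After 1 defeat it read 7.61, 8.68, 6.58 and 6.95 in D15 to D18. All 4 lay above all 3 controls, yet the difference of 0.54 ± 0.25 did not pass the test (limma, adjusted p = 0.904). After 4 defeats the values were 9.80, 18.2 and 12.3 in D11, D12 and D14. After 10 defeats they were 15.5, 31.0, 22.1, 14.2 and 29.4 in D5, D6, D7, D9 and D10. The 3 groups from controls to 4 defeats did not overlap one another, and the lowest library after 10 defeats lay under the highest after 4.

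The rise of Osm was 1.27 ± 0.27 after 4 defeats (limma, adjusted p = 0.00561) and 1.95 ± 0.24 after 10 (adjusted p = 7.14e-05). These are 2.79 and 4.66 times the control mean. The step from 4 to 10 defeats, 0.68 ± 0.24, did not pass (adjusted p = 0.128). It did without D12, the highest of the 4-defeat libraries (0.90, limma adjusted p = 0.0466), and with library weights (0.70, adjusted p = 0.0348).

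After rest, Osm read 9.05, 6.67, 5.96 and 4.59 in D1, D2, D3 and D8. All 4 lay below every library taken right after 10 defeats, and D8 fell within the control range. Osm fell by 1.60 on the log2 scale against 10 defeats (SE 0.22, limma adjusted p = 0.000726). Against controls the rested group differed by 0.35 ± 0.25, which did not pass (adjusted p = 0.537).

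Among the receptors, Osmr gives the chain that joins gp130 in the oncostatin M receptor. In marrow it was between 0.0459 and 0.455 in all 19 libraries, under the filter of 1, and was not tested there. By the rough depth estimate this was 3.9 to 72.8 reads per library, with a median of 26.9. It was detected in every marrow library at a level where group differences could not be assessed.

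Il6ra, the chain that lets cells respond to interleukin 6, stood at 16.3, 17.4 and 18.4 in control marrow. After 1 defeat it read 16.8, 16.6, 17.6 and 17.2, within the control range. After 4 defeats it read 12.1, 20.7 and 18.4, on both sides of the controls. After 10 defeats all 5 libraries lay above the controls, at 27.1, 22.7, 23.4, 25.2 and 22.8. The rise was 0.46 ± 0.18 (limma, adjusted p = 0.0478). Leaving out any 1 of the 8 libraries lost this call, with adjusted p between 0.0571 and 0.134. It was also lost for Il6ra with equal library totals (0.41, adjusted p = 0.21) and with no filter (adjusted p = 0.0863). After rest Il6ra read 33.1, 28.9, 20.9 and 15.96, from the highest value in marrow to below the controls.

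Il6st, which encodes gp130, did not pass any marrow test. Controls stood at 6.71, 6.98 and 8.39. The values were 7.21, 4.46, 6.43 and 6.65 after 1 defeat and 4.66, 5.12 and 7.61 after 4. After 10 defeats they were 8.86, 7.78, 7.71, 11.03 and 9.40, which overlapped the controls but lay above all 3 libraries of 4 defeats. The difference from controls was 0.25 ± 0.17 (limma, adjusted p = 0.239) and that from 4 defeats 0.56 ± 0.17 (adjusted p = 0.0822). With quantile normalization the first was 0.45 and passed (Il6st, limma adjusted p = 0.0249). After rest Il6st read 9.87, 11.3, 8.56 and 6.90.

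Stat3, the transcription factor at the end of the receptor pathway, stood at 35.7, 37.9 and 39.1 in control marrow. After 1 defeat it read 36.9, 34.0, 31.7 and 43.3, around the controls. After 4 defeats it read 36.9, 63.5 and 55.5, with D11 within the control range and D12 and D14 above it. After 10 defeats it read 55.02, 71.7, 61.1, 57.5 and 60.8, all above the controls. Stat3 rose by 0.69 ± 0.17 (limma, adjusted p = 0.00508), or 1.63 times the control mean. After 4 defeats the difference of 0.42 ± 0.20 did not pass (adjusted p = 0.126), and without D11 it was 0.65 and did (adjusted p = 0.0204).

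After rest, Stat3 read 66.7, 53.9, 43.5 and 36.9, spread over the range from controls to 10 defeats. The difference from 10 defeats was -0.31 ± 0.16 (limma, adjusted p = 0.168). Without D1, the highest rested library, it was -0.45 and passed (adjusted p = 0.0461).

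Socs3, the feedback inhibitor, stood at 3.22, 2.40 and 3.65 in control marrow. It read 2.31, 3.57, 2.70 and 3.15 after 1 defeat, around the controls. After 4 defeats it read 7.18, 10.6 and 10.4, and after 10 it read 8.67, 16.7, 8.83, 12.3 and 16.7. Both groups lay wholly above the controls and overlapped each other. Socs3 rose by 1.34 ± 0.30 after 4 defeats (limma, adjusted p = 0.00737) and by 1.70 ± 0.27 after 10 (adjusted p = 0.00023).

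After rest Socs3 read 11.1, 5.49, 4.49 and 3.75, all above the controls, with D1 within the 10-defeat range. It fell by 0.97 on the log2 scale against 10 defeats (SE 0.24, limma adjusted p = 0.0125). Against controls the difference was 0.73 ± 0.28 and did not pass (adjusted p = 0.259).

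Counted by comparison in marrow, no member was called after 1 defeat, when 0.00804% of 12442 genes were and 535 had an unadjusted p under 0.05 in limma. Osm and Socs3, 2 of 5, rose after 4 defeats, against 7.07% of all genes. After 10 defeats 4 of 5 rose, against 17.5% of all genes. In that comparison 2177 genes were called higher and 3517 lower, with a median of -0.126 over all genes, against 2763 and 2298 with a median of 0.018 under quantile normalization. The 4 members rose under both. None was called between 4 and 10 defeats, where 2.44% of genes were and 2511 had an unadjusted p under 0.05. Rest against 10 defeats called Osm and Socs3 lower, as it did 7.91% of genes. With equal library totals 3047 genes were called higher and 208 lower there, against 1716 and 984, and both members stayed called. Rest against controls called no member and 0% of genes, with 1768 genes at an unadjusted p under 0.05 in limma. With library weights it called 20.3% of genes and 1 member, Socs3 (0.59, adjusted p = 0.025). The comparisons with controls share the control libraries, and those with 10 defeats share the 10-defeat libraries.

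**Figure D2:**
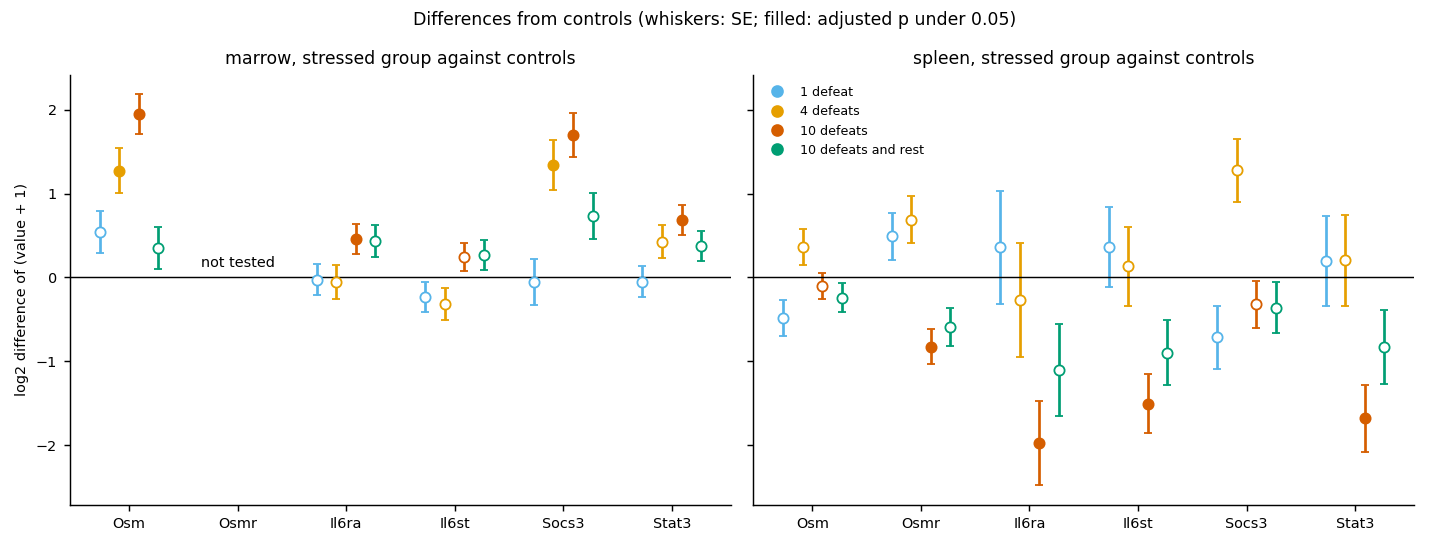
Log2 difference of (value + 1) from controls (y axis) for each gene (x axis) in marrow and spleen, by number of defeats (colour); whiskers are SE and filled points passed the test. In marrow Osm and Socs3 are filled at 4 and 10 defeats, and in spleen Osmr, Il6ra, Il6st and Stat3 are filled at 10 defeats and lie below 0.

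The marrow rises can be set beside the marker genes of the cells that make oncostatin M. Summed macrophage markers averaged 321.9 in controls and 228.9 after 10 defeats, and T cell markers 82.7 and 32.2, so both were lower while Osm was higher. The summed value of the 15 mature neutrophil markers, which S100a8 and S100a9 belong to, went from 45380 to 52280 in controls to 108800 to 207500 after 10 defeats, 2.93 times the control mean. S100a8 and S100a9 made up 90% to 94.9% of that sum in controls and after defeat, and the other 13 markers summed to 2.12 times the control mean. The 10 monocyte markers went from 1049 to 1107 to 2041 to 2764, or 2.13 times. Osm, at 4.66 times, and Socs3, at 4.09 times, exceeded both, whereas Stat3 (1.63) and Il6ra (1.39) were under both. None of these markers was at 0 in all libraries of a group. The haemoglobin share was 38.7% to 44.3% in controls and 11.1% to 26.8% after 10 defeats. After 4 defeats it was 40% in D11, the library with the lowest Osm, Socs3, Stat3, Il6ra and Il6st of its group, and 15.2% and 19.1% in D12 and D14. The part of cell makeup in these rises was not tested.

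Expressed per 1000 units of the summed neutrophil markers, Osm was 0.0966 to 0.1 in controls, 0.0665 to 0.163 after 1 defeat, 0.113 to 0.119 after 4 defeats, 0.112 to 0.221 after 10 and 0.0734 to 0.0899 after rest. The ratio was thus above the control range in every library of 4 and 10 defeats, on both sides of it after 1 defeat, and below it in every rested one. Per 1000 units of monocyte markers, Osm was 4.33 to 4.66 in controls, 7.25 to 8.55 after 4 defeats, 6.00 to 14.4 after 10 and 4.07 to 4.93 after rest. Socs3 per neutrophil markers overlapped the controls (0.0460 to 0.0804) after 10 defeats (0.0633 to 0.126), and per monocyte markers it did not (2.17 to 3.48 against 4.00 to 8.18). Stat3 per neutrophil markers was lower after 10 defeats (0.346 to 0.506) than in controls (0.724 to 0.862). Without S100a8 and S100a9 in the sum, Osm was 0.995 to 1.11 in controls, 0.938 to 1.82 after 1 defeat, 1.72 to 2.31 after 4, 1.44 to 2.85 after 10 and 0.824 to 1.14 after rest, so that the rested libraries then overlapped the controls. Socs3 was 0.518 to 0.8 in controls and 0.914 to 1.6 after 10 defeats on that basis, without overlap. Stat3 was lower after 10 defeats on that basis too, at 5.83 to 7.13 against 7.88 to 8.58. These ratios were chosen after the values had been seen and carry no test.

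**Figure D3:**
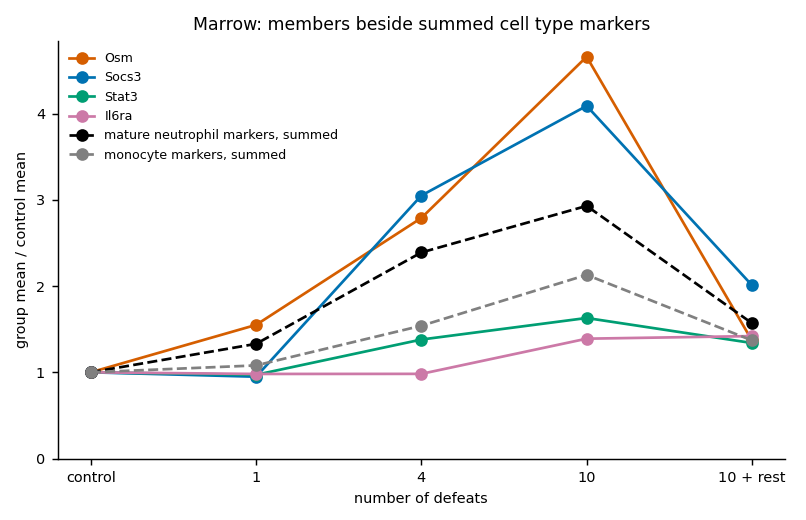
Group mean in marrow divided by the control mean (y axis, linear) by number of defeats (x axis), for 4 genes (solid lines) and for the summed markers of mature neutrophils and monocytes (dashed lines). Osm reaches 4.66 and Socs3 4.09 after 10 defeats, above the neutrophil markers at 2.93, and Stat3 stays at 1.63.

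The rested libraries were unlike one another. Osm, Il6ra, Socs3 and Stat3 all ran from D1 down through D2 and D3 to D8. The neutrophil marker sums ran the same way, at 101000, 74220, 69020 and 62530, and so did the monocyte sums, at 1838, 1558, 1397 and 1128. Il6st differed in having its highest value in D2. The share of haemoglobin genes in a library's total ran the other way, from 16.1% in D1 to 39.1% in D8, against 38.7% to 44.3% in controls. D1 thus carried the highest level of 4 of the 6 genes, the highest myeloid marker sums and the lowest haemoglobin share of its group.

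Genes whose marrow values followed each member most closely were ranked by Pearson's r of log2(value + 1) over the 19 libraries, among 8113 genes. Nearest to Osm were Junb (r = 0.968, Spearman 0.974), Plaur (0.948) and Ier3 (0.94). Junb encodes an AP-1 subunit, and averaged 18.3 in controls, 59.2 after 10 defeats and 21.7 after rest. Nearest to Socs3 were Myd88 (0.957), the adaptor of Toll-like and interleukin 1 receptors, Aacs (0.953) and Mvp (0.953). Nearest to Stat3 were N4bp1 (0.967), Kif3b (0.965) and Mefv (0.964), the pyrin gene. Il6ra was closest to Rab11fip1 (0.936), Dhrs9 (0.934) and Xpr1 (0.921), and Il6st to Gvin2 (0.879), Msr1 (0.878) and Slc29a3 (0.877). Osmr, at its low level, reached only 0.734 with Tpm2, 0.727 with Gas2l1 and 0.72 with Alox12. All these points share the 5 groups and their libraries, and the values are descriptive.

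Within the pathway in marrow, Osm and Socs3 had r = 0.86 and Osm and Stat3 r = 0.776 over the 19 libraries, while Osm and Il6st had 0.122. In spleen Osm and Stat3 had 0.048 over 18 libraries, and Osmr and Il6st 0.896.

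Other ligands of the family in marrow gave a mixed picture after 10 defeats. Of 10 listed, 5 passed the filter. Ebi3, the shared subunit of interleukins 27 and 35, rose (0.94 ± 0.15, limma adjusted p = 0.000305), and so did its partner Il27 (0.93 ± 0.23, adjusted p = 0.00397). Ctf2 was also called higher (0.76 ± 0.16, adjusted p = 0.00177). It lay between 0.160 and 1.68 in marrow, near the filter of 1. It may have passed that filter through its higher libraries alone, so its call is not read. Clcf1, a cytokine acting through the ciliary neurotrophic factor receptor, fell by 1.61 (SE 0.32, limma adjusted p = 0.00107), and Cntf did not pass. Clcf1 ran from 0.383 to 6.06 in marrow, so its lowest libraries were under the filter. It too may have passed through its higher libraries alone, and its call is given with that limit. Il6 itself stayed between 0.151 and 1.46 in all 19 libraries, and with Il11, Lif and Ctf1 was under the filter. After rest, Ebi3 was lower than after 10 defeats, at -0.44. Ctf2 was at -0.68, which is not read for the same reason as its rise.

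Partner receptors split as well. Il11ra1, the interleukin 11 receptor chain, rose by 0.85 ± 0.16 (limma, adjusted p = 0.000729), and Il27ra, the interleukin 27 receptor chain, fell by 1.42 on the log2 scale (SE 0.28, adjusted p = 0.000974). Il27ra ran from 0.519 to 6.74 in marrow, so the limit given for Clcf1 holds for it as well. Lifr, the receptor chain for leukaemia inhibitory factor, gave -0.11 ± 0.23 and Cntfr was not tested. Of 4 JAK kinases, Jak3 rose (0.77 ± 0.23) and Jak2, which acts at gp130 and at the erythropoietin receptor, fell by 0.36 (SE 0.11). Of the other 6 STAT genes only Stat4 passed, rising by 0.57 ± 0.15 (limma, adjusted p = 0.00694).

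A list of 15 other regulators held mainly inhibitors, and also the protease genes Adam10 and Adam17. Of these 15, 4 rose and 5 fell after 10 defeats, against 17.5% and 28.3% of all genes. Their median was -0.117 against -0.126 over all genes. Cish, a SOCS family gene induced by STAT5, rose by 1.07 ± 0.17 (limma, adjusted p = 0.000272). Adam17, the protease that sheds the interleukin 6 receptor, rose by 0.47 ± 0.10 and the phosphatase gene Ptpn1 by 0.53 ± 0.14. Socs5 fell by 0.40 (SE 0.11). Of the 6 other genes named Socs none rose: Socs4 and Socs7 fell as well, and Socs1, Socs2 and Socs6 did not pass. From 10 defeats to rest Cish fell by 0.94 on the log2 scale.

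Of 22 genes known as STAT3 targets, 21 were tested in marrow. After 10 defeats 10 rose and 3 fell, and the list's median was 0.635 against -0.126 over all genes, of which 17.5% rose and 28.3% fell. The smallest p values were those of Cebpb, a transcription factor of emergency granulopoiesis (from 13.7 to 56.7, difference 1.95 ± 0.27), Lrg1, a neutrophil granule and acute phase protein (82.5 to 440.6, difference 2.31 ± 0.33), Junb (1.59 ± 0.23) and Fos (2.49 to 40.7, difference 3.44 ± 0.50). The 3 that fell were Myc, Ccnd1 and Serpina3g. Rest against 10 defeats turned this about, with 9 lower and 1 higher, against 7.91% and 13.8% of all genes. Junb fell by 1.36 on the log2 scale, Fos fell by 3.03 and Pim1, a survival kinase, fell by 0.77, while Myc rose by 0.81. After 4 defeats 7 had risen and 3 fallen, with a median of 0.203 (7.07% of all genes rose). The list was chosen with earlier results of these data known, so its shares beside those of all genes are descriptive. Many of these genes answer to other signals too, and Cebpb and Lrg1 are neutrophil genes, so the neutrophil marker rise above stands beside them as well. Its part was not tested.

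**Figure D4:**
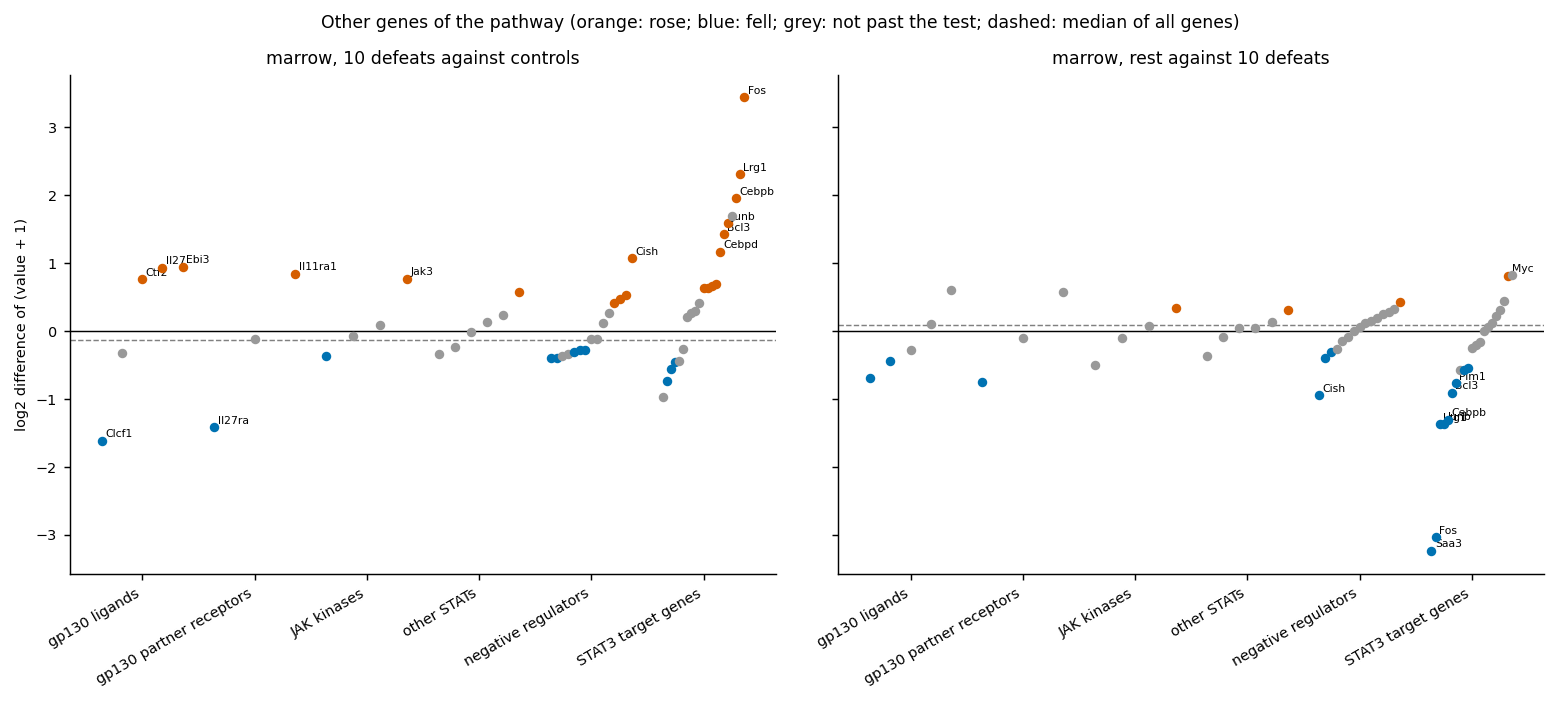
Log2 difference of (value + 1) (y axis) of the other genes of the pathway in marrow, by list (x axis), for 10 defeats against controls (left) and rest against 10 defeats (right). Each point is a gene, coloured by its call, and the dashed line is the median of all genes. Of 21 STAT3 target genes, 10 rise on the left and 9 fall on the right. The lists were chosen with earlier results of these data known.

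The spleen gave a different picture. Osmr averaged 3.11 ± 1.04 (SD, n = 4) in undefeated spleen and 0.278 ± 0.147 (n = 3) in undefeated marrow. It passed the filter of the joint fit through its spleen values alone, so its test is not read. Of the 5 members that reached the filter in both organs, 3 differed. Il6st averaged 28.6 ± 5.15 against 7.36 ± 0.904 (1.81 ± 0.33, limma adjusted p = 2.74e-05) and Socs3 10.3 ± 1.998 against 3.09 ± 0.632 (1.45 ± 0.31, adjusted p = 0.000269). Osm was lower in spleen, at 2.47 ± 0.400 against 4.81 ± 0.317 (-0.75 ± 0.23, adjusted p = 0.00695), a call lost when library totals were made equal (Osm -0.57, adjusted p = 0.128). Il6ra (-0.46, adjusted p = 0.437) and Stat3 (-0.12, adjusted p = 0.827) did not pass. Of 14513 genes 27.1% were higher in spleen and 19.2% lower.

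Osm in spleen stayed low throughout. It read 2.24, 2.05, 2.65 and 2.94 in controls C1 to C4, 2.04 and 1.02 after 1 defeat, and 3.21 and 3.71 after 4. After 10 defeats its lowest, median and highest values were 1.76, 2.10 and 3.07, and after rest it read 1.94, 1.61, 1.62 and 2.63. Both 4-defeat libraries lay above all controls, and the 10-defeat and rest groups overlapped them. The difference after 10 defeats was -0.10 ± 0.16 (limma, adjusted p = 0.595). Its sign hung on the scaling: Osm gave 0.41 with quantile normalization, 0.08 with median-ratio rescaling and -0.63 with equal totals, the last of which passed (adjusted p = 0.0493). The summed neutrophil markers of the same spleens went from 421.1 to 606.4 in controls to 1230 to 84430 after 10 defeats and 4359 to 77000 after rest. S100a8 and S100a9 made up 79% to 99% of it after 10 defeats, and the other 13 markers went from 236.7 to 256.6 to 257.7 to 1185. Osm in spleen lay between 1.02 and 3.71 over all 18 libraries.

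Osmr in spleen read 2.76, 4.50, 2.02 and 3.15 in controls, 4.52 and 4.77 after 1 defeat and 7.10 and 4.16 after 4. After 10 defeats the lowest, median and highest were 0.862, 1.14 and 2.26, and only D4, the highest, reached the control range. It fell by 0.83 on the log2 scale (SE 0.21, limma adjusted p = 0.00406). With quantile normalization Osmr was at -0.36 and did not pass (adjusted p = 0.0717). After rest Osmr read 1.32, 1.07, 2.33 and 2.11.

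Il6ra in spleen read 13.4, 11.6, 9.14 and 16.3 in controls. It read 16.7 and 15.6 after 1 defeat and 11.9 and 8.55 after 4. After 10 defeats it was 5.87 in D5 and 8.30 in D4, but 0.745, 1.78, 1.24 and 1.24 in D6, D7, D9 and D10. All 6 lay below the controls, and the last 4 are the libraries of steep length slope. Il6ra fell by 1.97 on the log2 scale (SE 0.50, limma adjusted p = 0.00437). After rest it read 5.80, 0.883, 11.04 and 8.65, lowest in D2, the steep library of that group.

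Il6st in spleen read 31.1, 29.8, 21.1 and 32.6 in controls, 32.6 and 41.2 after 1 defeat and 35.6 and 27.1 after 4. After 10 defeats it was 13.9 in D5 and 23.4 in D4, and 4.24, 6.57, 8.81 and 7.47 in D6, D7, D9 and D10. Only D4 reached the control range. Il6st fell by 1.51 on the log2 scale (SE 0.35, limma adjusted p = 0.00266). After rest it read 13.3, 8.09, 20.3 and 20.98, all below the lowest control at 21.09, and the difference from controls of -0.90 ± 0.39 did not pass (limma, adjusted p = 0.139).

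Stat3 in spleen read 38.0, 26.8, 30.7 and 45.5 in controls, 37.7 and 41.8 after 1 defeat and 47.2 and 33.8 after 4. After 10 defeats it was 18.9 in D5 and 26.04 in D4, and 6.48, 6.09, 6.53 and 7.67 in the 4 steep libraries. All 6 lay below the controls, D4 by less than 1 unit. Stat3 fell by 1.68 on the log2 scale (SE 0.40, limma adjusted p = 0.00302). After rest it read 20.96, 7.84, 29.1 and 26.4.

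Socs3 in spleen read 11.5, 7.32, 10.8 and 11.46 in controls and 5.08 and 6.58 after 1 defeat, both below the controls. After 4 defeats it was 49.2 in D13 and 13.5 in D14. The difference of 1.28 ± 0.37 did not pass (limma, adjusted p = 0.234), and with D13 as the only library of its group Socs3 gave 2.17 and passed (adjusted p = 0.00616). After 10 defeats the lowest, median and highest were 6.48, 7.95 and 10.3, within or just under the controls (-0.32 ± 0.28, adjusted p = 0.328). With library weights Socs3 was at -0.51 and passed (adjusted p = 0.0424). After rest it read 11.4, 5.21, 7.14 and 8.09.

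By comparison in spleen, 4 members, Osmr, Il6ra, Il6st and Stat3, were called lower after 10 defeats, as were 41.9% of 13945 genes. The median of all genes was itself -0.357, and relative to it the 4 members lay at -0.471, -1.62, -1.15 and -1.32 in that order. That median was -0.056 with quantile normalization, -0.158 with median-ratio rescaling and -0.852 with equal totals. Calls of all genes were 2348 higher and 5848 lower, against 3275 and 3764 with quantile normalization, 3107 and 4536 with median-ratio rescaling and 802 and 7461 with equal totals. The 4 calls remained in each fit that left out 1 library. Without the 5 steep libraries none of the 6 was called, at -0.52 for Osmr, -0.74 for Il6ra (limma, adjusted p = 0.0509), -0.62 for Il6st and -0.62 for Stat3, with Osm at -0.26 and Socs3 at -0.11. That fit had D4 and D5 alone left after 10 defeats. It called 15.2% of 13649 genes lower, against 41.9% in the full fit. With each library's length trend removed all 4 stayed called, with Il6ra at -1.44 and Stat3 at -1.88. That fit used the median transcript length, 749 bases for Stat3 (longest 6042), 2778 for Il6st (longest 8678) and 5991 for Il6ra. Stat3 was thus treated as a short gene, and the fit cannot show what its longer transcripts would give. The part of the length trend in these values was not tested further. The haemoglobin share was 45.4% to 52.0% in the 4 steep 10-defeat libraries, 11.5% and 24.5% in D4 and D5 and 10.6% to 23.1% in controls. Stromal marker sums were 95.9 to 302.6 after 10 defeats against 284.9 to 352.9, and endothelial sums 52.7 to 85.5 against 86.4 to 106.7. Their part in the falls was not tested.

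**Figure D5:**
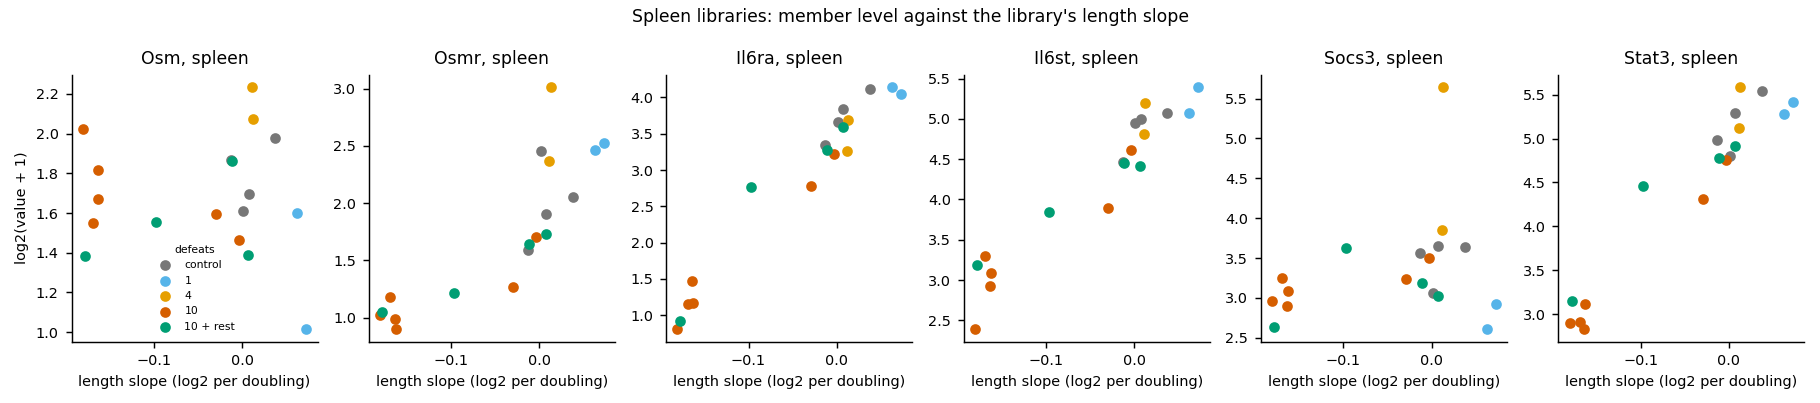
Log2(value + 1) of each gene in the 18 spleen libraries (y axis) against the library's slope of log2 deviation on log2 gene length (x axis), coloured by number of defeats. Il6ra, Il6st, Stat3 and Osmr are lowest in the 5 libraries with slopes under -0.16, and Osm is not.

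Of the other spleen comparisons, only that of 10 with 4 defeats called any member. None was called after 1 defeat, where 0.688% of genes were and 2104 had an unadjusted p under 0.05 in limma. None was called after 4 defeats (0.0430% of genes, 1314 at an unadjusted p under 0.05). None was called after rest against controls (7.26% of genes, 4095 at an unadjusted p under 0.05), also without the 5 steep libraries, or against 10 defeats (0.567%, 3081 at an unadjusted p under 0.05), the latter also with 0 called without those libraries. Between 10 and 4 defeats Osmr, Il6st, Socs3 and Stat3 were called lower, as were 11.2% of genes, at -1.52, -1.64, -1.60 and -1.88 and with limma adjusted p of 0.0319, 0.0356, 0.0319 and 0.0352. With 2 libraries after 4 defeats these calls were fragile. All 4 were lost without any 1 of D6, D7, D9, D10 and D13, and without the 5 steep libraries, and 2 were left without D14. Of all 13649 genes tested without the steep libraries, 0.00733% were called lower and 0 higher, so the loss there was not particular to the members. Socs3 was at -1.39 without the steep libraries and at -0.70 without D13.

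Of the wider pathway in spleen after 10 defeats, all 4 JAK kinases, 5 of 6 other STAT genes, 3 of 4 partner receptors and 10 of the 15 listed regulators fell, against 41.9% of all genes. Without the 5 steep libraries these counts were 0, 3, 3 and 2, against 15.2% of 13649 genes, with 2 libraries left after 10 defeats. Stat4 fell by 2.25 (SE 0.43) on the log2 scale and Jak1 fell by 1.71 (SE 0.41), beside T cell markers of which 9 of 10 fell. Cish was the only one of the 15 listed regulators to rise (1.08 ± 0.30), and without the steep libraries 0 of the 15 rose. Of 22 STAT3 targets 10 fell and 5 rose: Bcl2l1, Pim1, Fos, Saa3 and Cebpd. Of all genes 41.9% fell and 16.8% rose. Without the steep libraries 4 fell and 0 rose, against 15.2% and 8.59% of all genes. Bcl2l1 went from 19.4 to 77.9 and is known as a survival gene of late erythroid cells, whose markers rose here. The part of cell makeup or of the steep libraries in its rise was not tested. Cebpb, Lrg1 and Junb, which rose in marrow, did not pass in spleen.

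The effect of 10 defeats differed between the organs for the 5 genes that could be measured in both. Taken as the spleen change minus the marrow change, it was -2.05 ± 0.29 for Osm (limma interaction term, adjusted p = 3.95e-06), -2.02 ± 0.40 for Socs3 (adjusted p = 0.000223), -2.37 ± 0.47 for Stat3 (adjusted p = 0.000237), -2.43 ± 0.58 for Il6ra (adjusted p = 0.0014), and -1.75 ± 0.42 for Il6st (adjusted p = 0.00133). Of 14513 genes 27.0% were called lower by the same term, and the median of all genes was -0.222. For Osm and Socs3 a marrow rise stood beside a spleen change that did not pass. Il6st had a spleen fall without a called marrow change, and Stat3 and Il6ra had both a marrow rise and a spleen fall. The marrow call of Il6ra was lost on leaving out any single library of the groups compared. The spleen calls of Il6st, Stat3 and Il6ra were lost without the 5 steep libraries. Without the 5 steep libraries Osm stood at -2.20, Socs3 at -1.81, Stat3 at -1.30, Il6ra at -1.20 and Il6st at -0.87, all still called. The term for Osmr, -0.73 ± 0.24, is not counted, since its marrow values were all under 0.5 and it passed the filter through spleen alone.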

How the data were processed

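Polyadenylated RNA from marrow and spleen was isolated with NucleoSpin RNA Plus and made into TruSeq Stranded mRNA libraries, per the labels' protocols. The submitters' processing notes name kallisto 0.46.1, sleuth and the build GRCm38, without roles. The deposited table holds a non-negative signal per gene and library, an abundance already scaled by the authors; the quantity and the scaling are not given in the sources used here. No columns were identical, and 0 columns lacked a sample.

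From these values log2(value + 1) was fitted per tissue with limma 3.58.1 (R 4.3.3; trend and robust), all groups sharing 1 spread. Genes needed a value of at least 1 in 3 marrow or 2 spleen libraries. Comparisons between tissues used all 37 libraries and a minimum of 2. There were 14 comparisons, each with Benjamini-Hochberg adjustment over all its genes. A count test was planned for the case of counts and was not run. Gene positions came from GENCODE M21, in which 35629 identifiers matched. Where libraries of a group share an unknown source, p-values measure only the spread between them.

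The members and lists were chosen with earlier results of these data known. Named genes were the members, up to 4 of smallest p per pathway list, and the 3 closest in pattern to each member; others named in the text were chosen after their values were seen. A result of the ligand list is not reported here. The fit was tested on simulated data with independent noise. In each tissue 100 changes of log2 1 and 100 of log2 2 were planted, all in genes with a mean log2(value + 1) above 2. For marrow after 10 defeats it recovered 86% and 99% of them, in a set of 12442 genes. For spleen it recovered 49% and 95%, in 13485 genes that reached the filter in 3 libraries. Recovery for lower genes, or with noise shared between libraries, was not simulated. Alternatives were other scalings, pseudocounts, filters, weights, library sets and a replicate block.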

Additional observations from a re-analysis of the deposited data

Results flagged for a closer look

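The effect of 10 defeats differed between spleen and marrow by the interaction test (limma, adjusted p under 0.05), which drew attention to these values. The difference, spleen minus marrow on the log2 scale, was -2.05 for Osm, -2.43 for Il6ra, -1.75 for Il6st, -2.02 for Socs3 and -2.37 for Stat3. The term for Osmr was -0.725, but its marrow values lay under the filter, so it largely restates the spleen values. It lost its call with a pseudocount of 0.1 (Osmr, adjusted p = 0.247), without the 5 steep libraries (0.232), without marrow C2 (0.053) and without spleen C2 (0.0543). No member's library stood out as a lone extreme value in any of the 36 sets of 4 to 6 libraries examined.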

How the results depend on the processing

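The Osm and Socs3 calls in marrow, after 4 and 10 defeats and on rest against 10 defeats, held in all alternatives run, and no called value changed sign. Among single-gene values, leaving out 1 library gave 606 the same, 32 that lost and 7 that gained a call, and 18 uncalled sign changes; the other settings gave 682, 22, 19 and 25. The counts of members called moved as follows. With library weights, 1 was called in marrow at rest against controls, 1 for 10 against 4 defeats, 1 in spleen after 1 defeat, 2 at rest against controls and 4 at rest against 10 defeats. Without the 5 steep libraries, 0 were called in spleen after 10 defeats and 0 for 10 against 4 defeats. The shares of all genes called lower in those fits were 15.2% and 0.00733%. For 10 against 4 defeats the count was also 0 with no filter, where 0.0489% of all genes were called, and 0 with only those groups fitted. The cause was not tested. Leaving out single libraries gave 0 to 1 for marrow 10 against 4 defeats (1 without D12), 0 to 1 for spleen 4 defeats (1 without D14), 0 to 5 for spleen 10 against 4 defeats, and 0 to 1 for spleen rest against 10 defeats (1 without D4). The shares of all genes called in these fits were not kept, so these counts have no background beside them.

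Labels repeat numbers across tissues. With the number as a replicate block, the interaction was -1.98 for Osm, -0.97 for Osmr, -2.85 for Il6ra, -2.14 for Il6st, -2.06 for Socs3 and -2.68 for Stat3, and the block changed no call there or between control organs. Of 15 shared numbers 5 had correlated deviations above 0.1 (-0.204 to 0.35), and 10 of 14 libraries correlated best with their own number, as a hint only. Within a tissue no paired analysis was possible because groups share no numbers. Small groups (2 spleens after 1 and 4 defeats), low Osmr in marrow, the steep spleen libraries and the scaling all limit precision. The list counts without the steep libraries and the marker sum without S100a8 and S100a9 were added after the values had been seen.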
